A study of Homo sapiens with 60 samples.

Results

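GDF15, VEGFA, STC2, VLDLR, SESN2 and DDIT4, 6 genes that carry the outputs of cellular stress responses, were followed in human 1321N1 cells, an astrocyte-derived astrocytoma line, exposed to arsenic, cadmium or mercury. They were chosen by name, as secreted or mTORC1-restraining outputs of stress signalling, out of 62703 genes in the count table. All 6 had enough counts to be among the 12341 genes tested. Earlier results of these data were known when they were chosen, so the shares over all genes given below are description only. Cells received 2.55 µM sodium metaarsenite, 2.3 µM cadmium chloride or 20 µM mercury chloride for 1.5, 3, 6, 12 or 24 h, and non-treated cells were collected at each time. The concentrations were set by the study for an equal share of cell death after a longer exposure, so the metals were matched in toxicity and not in molarity. Each of the 20 groups had 3 libraries, 60 in all. The labels call them technical triplicates, so the p-values measure the spread between libraries that may share a culture.

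These genes are among those linked to the integrated stress response. In it, phosphorylation of a translation initiation factor lowers general protein synthesis while the transcription factor ATF4 is made and switches on its targets. GDF15 is a circulating member of the TGF-β superfamily that acts on the hindbrain receptor GFRAL and lowers food intake. VEGFA is the principal growth factor for blood vessels, and STC2 (stanniocalcin 2) is a secreted glycoprotein that blocks the proteases PAPPA and PAPPA2. VLDLR is a lipoprotein receptor that in brain also receives reelin. SESN2 (sestrin 2) and DDIT4 (REDD1) both restrain mTORC1, the kinase complex that couples nutrients to growth, SESN2 as a leucine sensor acting on GATOR2 and DDIT4 through the TSC complex. Several of the 6 also answer to other regulators, among them HIF for VEGFA and DDIT4, p53 for GDF15 and SESN2, and glucocorticoids for DDIT4.

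Library depth ran from 2215276 to 4404609 counts. 3 libraries stood apart by a low share of counts on mitochondrial genes, cadmium 6 h replicate 1 (1.35%), arsenic 3 h replicate 2 (1.91%) and arsenic 6 h replicate 3 (3.83%), and fits without them are given where a call changed. Of the astrocyte markers, VIM, CD44, SOX9, GJA1 and NES had counts in all 60 libraries, whereas AQP4 and ALDH1L1 had no count and GFAP had 6 counts over all libraries. Markers of neurons, oligodendrocytes, immune, endothelial and epithelial cells were nearly all SYT1. Their sum was 6.20 to 17.3 CPM (counts scaled to a fixed library total) in non-treated, 7.78 to 21.7 CPM in arsenic, 9.34 to 17.9 CPM in cadmium and 10.5 to 19.7 CPM in mercury libraries, and SYT1, the 1 of 14 tested, was called higher with mercury at 6 h (log2 fold change 1.298) and 12 h (0.79). The astrocyte markers summed to 3922 to 5779, 3366 to 5743, 3465 to 6347 and 3894 to 6127 CPM in the same order. Most of this sum was VIM (median 4476 CPM over all libraries), with CD44 next (393 CPM). S100B had 1 count, SLC1A2 23 and SLC1A3 205 over all libraries, so the sum says little about these markers. Of the 5 of 11 that were tested, SOX9 was called lower with arsenic at 12 h (-0.65) and 24 h (-0.98), CD44 lower with arsenic at 24 h (-0.47), NES lower with mercury at 24 h (-1.62), and GJA1 (0.70), SOX9 (0.55) and CD44 (0.37) higher with cadmium at 12 h. Their part in the results on the 6 genes was not tested. In bulk RNA, fewer cells with a transcript and less transcript per cell cannot be told apart.

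The 6 genes lie on 6 chromosomes (GRCh38). GDF15 spans chr19:18374731-18389176, VEGFA chr6:43770184-43786487, VLDLR chr9:2621182-2660056, SESN2 chr1:28259518-28282491 and DDIT4 chr10:72273919-72276036, all on the plus strand, and STC2 spans chr5:173314723-173328447 on the minus strand. The libraries read the 3′ end of polyadenylated RNA, and none of the last 400 exonic bases of any of the 6 was shared with another gene on the same strand in GENCODE 44.

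Since all 6 genes were called higher with arsenic and with mercury at 12 and 24 h, the stretches upstream of 3 of them are shown, taken from promoter windows of RefSeq that run from 250 bases before to 50 bases after a gene's start (GRCh38). A window was matched for 5 of the 6, GDF15, STC2, VLDLR, SESN2 and DDIT4. For each, only the longest run of bases before the start that is free of annotated exons on either strand is printed. It is given in the direction of transcription, with matches to the motifs searched in capitals.
DDIT4, chr10:72273705-72273918, bases -219 to -6: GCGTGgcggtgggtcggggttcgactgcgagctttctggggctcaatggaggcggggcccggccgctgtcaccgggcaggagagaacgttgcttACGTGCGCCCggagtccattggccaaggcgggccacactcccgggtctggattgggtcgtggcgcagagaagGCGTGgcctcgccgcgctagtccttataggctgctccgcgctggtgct
STC2, chr5:173328448-173328664 on the minus strand, bases -250 to -34: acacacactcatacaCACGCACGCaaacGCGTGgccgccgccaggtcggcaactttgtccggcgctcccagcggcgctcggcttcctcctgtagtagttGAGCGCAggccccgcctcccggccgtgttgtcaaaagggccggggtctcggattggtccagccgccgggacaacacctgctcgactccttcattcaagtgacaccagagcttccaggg
SESN2, chr1:28259268-28259517, bases -250 to -1: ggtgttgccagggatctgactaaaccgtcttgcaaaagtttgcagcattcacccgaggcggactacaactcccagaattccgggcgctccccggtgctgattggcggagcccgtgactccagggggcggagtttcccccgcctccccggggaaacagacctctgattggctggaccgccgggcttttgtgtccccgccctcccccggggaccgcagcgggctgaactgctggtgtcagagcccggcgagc

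In DDIT4, the hypoxia-type letters ACGTG began at base -125 and ran into the metal-type letters TGCGCNC that began at -122, so the capitals form 1 block. ACGTG was found in 1 of the 5 windows and in 21.4% of the 35116 windows in the table. The other hypoxia-type letters, GCGTG, were in 3 of 5 windows (DDIT4, STC2 and VLDLR) against 36.5% of all. The metal response letters TGCGCNC were in 2 of 5 (DDIT4 and STC2) against 20%, and TGCACNC in 1 of 5 (VLDLR, where they overlap a GCGTG match) against 12.1%. The antioxidant response letters TGACNNNGC were in 2 of 5 (STC2 and VLDLR) against 13.3%, in both outside the stretches printed. The C/EBP-ATF letters TGATGNAA and the heat shock letters GAANNTTC were in 0 of 5 windows, against 3.62% and 6.77% of all. Both strands were searched. A match is a run of letters, and its absence says only that these letters are not in this window.

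Cells given a metal were set against the non-treated libraries of that time, to ask when and how strongly each output rose. A gene was called at an adjusted p under 0.05 in edgeR's quasi-likelihood test. With arsenic, 0, 1, 5, 6 and 6 of the 6 genes were called higher at the 5 times in order (1.5 h first), where 0.0648%, 0.122%, 0.608%, 2.37% and 6.54% of all tested genes were. With cadmium the numbers were 0, 1, 5, 5 and 4 of 6, against 0%, 0.203%, 1.6%, 5.19% and 1.56%. With mercury they were 2, 5, 5, 6 and 6 of 6, against 0.478%, 1.39%, 4.49%, 8.89% and 13.9%. None of the 6 was called lower in any of the 15 comparisons. At 1.5 h, where no member was called with arsenic or cadmium, DESeq2 called none either, and an unadjusted p under 0.05 was reached by 1 member with arsenic (STC2) and 0 with cadmium. Over all genes, cadmium at 1.5 h gave 0 calls in either direction and 991 genes at an unadjusted p under 0.05.

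The median log2 fold change (LFC) of the 6 genes at 24 h stood at 2.01 (arsenic), 0.96 (cadmium) and 2.48 (mercury), beside 0.00041, -0.0069 and -0.021 over all tested genes. At 12 h it was 1.81, 1.47 and 2.66 in the same order. The 3 metals share the same 3 non-treated libraries at each time, so a low or high control library moves all 3 comparisons at once.

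**Figure D1:**
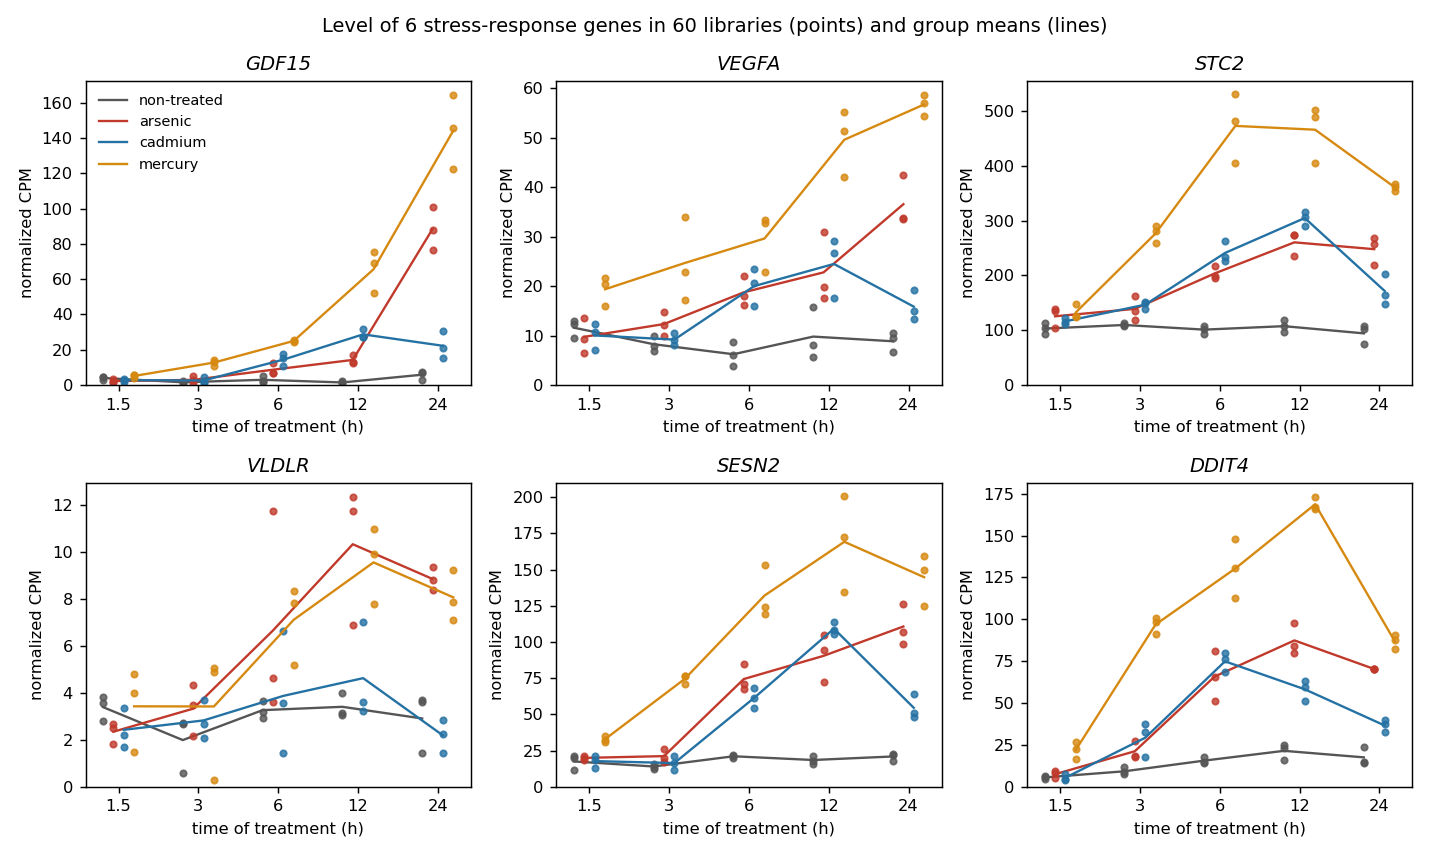
Level of each of the 6 genes in normalized CPM (vertical axis, linear and starting at 0, its own scale for each gene) against time of treatment (horizontal axis, evenly spaced time points); points are single libraries and lines join the means of 3. The mercury means (orange) are the highest from 3 h on for every gene but VLDLR and, at 24 h, reach 144 CPM for GDF15, and the cadmium means (blue) are lower at 24 h than at 12 h for all 6.

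GDF15 had the largest LFC of the 6 with each metal at 12 and 24 h, though not at every earlier time. In non-treated cells it was close to the detection limit, between 0.558 and 2.09 CPM at 12 h, which is 2, 6 and 8 counts, and at 3.08, 7.67 and 6.91 CPM at 24 h. With mercury the 3 libraries read 13.2, 14.2 and 10.9 CPM at 3 h, 52.3, 75.3 and 69.3 CPM at 12 h, and 146, 164 and 123 CPM at 24 h. With arsenic they read 12.6, 12.9 and 17.3 CPM at 12 h and 88.1, 76.5 and 101 CPM at 24 h. Every treated library at 12 and 24 h lay above every non-treated library of its time, with cadmium too, where the 3 values were 27.2, 27.2 and 31.9 CPM at 12 h and 20.8, 15.1 and 30.8 CPM at 24 h.

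The fitted LFC of GDF15 with mercury was 2.98 ± 0.40 (SE) at 3 h, then 3.04 ± 0.34 at 6 h, 5.42 ± 0.33 at 12 h and 4.63 ± 0.27 at 24 h, with an adjusted p of 1.36e-21 at 12 h. The fold was larger at 12 h than at 24 h although the level was higher at 24 h, since the non-treated mean was 1.50 ± 0.82 CPM (SD, n = 3) at 12 h and 5.88 ± 2.46 CPM at 24 h. Arsenic was first called at 6 h and gave 1.52 ± 0.39 at 6 h, 3.22 ± 0.39 at 12 h and 3.93 ± 0.27 at 24 h. Cadmium gave 2.24 ± 0.37 at 6 h, 4.23 ± 0.36 at 12 h and 1.92 ± 0.29 at 24 h. At 1.5 h arsenic was at -0.85, cadmium at -0.53 and mercury at 0.34, none of them called, and at 3 h arsenic (0.91) and cadmium (0.70) were not called. The 6 h arsenic call (adjusted p = 0.0275) was lost without arsenic replicate 1 (LFC 1.20, adjusted p = 0.29), non-treated replicate 1 (1.27, 0.246) or non-treated replicate 3 (1.33, 0.229), and with only the 6 libraries compared (1.53, 0.0804). Without non-treated 6 h replicate 2, the highest of its group at 5.10 CPM, the 6 h LFCs became 2.13 with arsenic, 2.84 with cadmium and 3.66 with mercury.

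In order of mean level, GDF15 stood at 144 ± 20.8 CPM in mercury at 24 h, 88.4 ± 12.1 CPM in arsenic at 24 h, 65.6 ± 11.9 CPM in mercury at 12 h and 28.7 ± 2.71 CPM in cadmium at 12 h, and each of these groups lay apart from the next in its library range. From mercury at 6 h (25.0 ± 0.74 CPM) downwards, every group overlapped the next one in the order.

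VEGFA, the vascular growth factor, was first called with mercury at 3 h and with arsenic and cadmium at 6 h. Its 3 libraries read 21.6, 16.0 and 20.5 CPM with mercury at 1.5 h and 12.4, 12.9 and 9.53 CPM without treatment, an LFC of 0.73 ± 0.27 that was not called (adjusted p = 0.544). At 24 h the mercury libraries read 58.7, 54.4 and 57.0 CPM, the arsenic libraries 33.7, 42.4 and 33.5 CPM, the cadmium libraries 13.4, 19.1 and 15.05 CPM and the non-treated libraries 9.51, 10.4 and 6.62 CPM. The 4 groups did not overlap at 24 h. The LFC with mercury was 1.59 ± 0.28 at 3 h, then 2.26 ± 0.29 at 6 h, 2.36 ± 0.26 at 12 h and 2.68 ± 0.26 at 24 h (adjusted p = 3.32e-13). Arsenic gave 1.60 ± 0.31, 1.24 ± 0.27 and 2.04 ± 0.26 at 6, 12 and 24 h.

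Cadmium gave 1.68 ± 0.31 at 6 h and 1.35 ± 0.27 at 12 h for VEGFA, and at 24 h an LFC of 0.83 ± 0.28 that missed the threshold (adjusted p = 0.122, 95% interval 0.27 to 1.40). The non-treated libraries at 12 h spread from 5.58 to 15.7 CPM. The 12 h arsenic call (adjusted p = 0.00142) was lost without arsenic replicate 3 (LFC 0.95, adjusted p = 0.0568) or non-treated replicate 1 (0.96, 0.0509).

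STC2, the secreted inhibitor of PAPPA proteases, had 256 to 1835 counts per library. The non-treated libraries stayed between 74.2 and 119 CPM over all 5 times. With mercury the 3 libraries read 481, 532 and 405 CPM at 6 h, 406, 502 and 490 CPM at 12 h and 361, 366 and 354 CPM at 24 h, all above the non-treated range. The LFC was 1.33 ± 0.12 at 3 h, then 2.22 ± 0.12 at 6 h, 2.12 ± 0.12 at 12 h and 1.93 ± 0.12 at 24 h (adjusted p = 6.57e-22). Arsenic gave 1.01 ± 0.12, 1.28 ± 0.12 and 1.39 ± 0.12 at 6, 12 and 24 h, and cadmium 1.25 ± 0.12, 1.50 ± 0.12 and 0.86 ± 0.12. STC2 was therefore called with every metal from 6 h on and with mercury from 3 h. At 3 h the LFC was 0.34 with arsenic (adjusted p = 0.447) and 0.42 with cadmium (adjusted p = 0.173). By mean level, mercury at 6 h (473 ± 63.6 CPM) and at 12 h (466 ± 52.2 CPM) overlapped, and both lay above mercury at 24 h (360.5 ± 6.35 CPM) and cadmium at 12 h (305 ± 12.8 CPM).

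VLDLR, the lipoprotein and reelin receptor, had 1 to 47 counts per library. It was called at 12 and 24 h with arsenic and mercury and at no time with cadmium. At 24 h the arsenic libraries read 9.34, 8.37 and 8.81 CPM, the mercury libraries 7.84, 7.11 and 9.22 CPM and the non-treated libraries 3.60, 3.68 and 1.44 CPM. The cadmium libraries, at 2.27, 2.85 and 1.43 CPM, lay within or below the non-treated range. The LFC at 24 h was 1.59 ± 0.47 with arsenic (adjusted p = 0.0130), 1.46 ± 0.47 with mercury (adjusted p = 0.0147) and -0.38 ± 0.54 with cadmium (adjusted p = 0.853, 95% interval -1.46 to 0.70). At 12 h it was 1.60 ± 0.45 with arsenic, 1.49 ± 0.46 with mercury and 0.45 ± 0.50 with cadmium. At 6 h, 1 arsenic library read 11.7 CPM and the other two 3.59 and 4.63 CPM, and the LFC of 1.04 ± 0.49 was not called (adjusted p = 0.48).

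Each VLDLR call was lost when certain single libraries were left out, although the LFC kept its sign. The 12 h arsenic call (adjusted p = 0.0231) was lost without arsenic replicate 1 (LFC 1.50, adjusted p = 0.0986), arsenic replicate 3 (1.45, 0.103), or non-treated replicate 1 (1.53, 0.109), replicate 2 (1.73, 0.0593) or replicate 3 (1.54, 0.0887). The 12 h mercury call (0.0167) was lost without mercury replicate 2 (1.38, 0.0714) or non-treated replicate 1 (1.43, 0.0711) or 3 (1.43, 0.0612). At 24 h, both calls were lost without non-treated replicate 3, the lowest of its group (arsenic LFC 1.28, adjusted p = 0.0826, and mercury 1.15, 0.0906), and the mercury call also without mercury replicate 3 (1.35, 0.0508).

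SESN2, which restrains mTORC1 when leucine is scarce, rose with mercury from the first time point. At 1.5 h its libraries read 35.2, 32.4 and 30.9 CPM with mercury and 11.4, 21.2 and 19.8 CPM without treatment, an LFC of 0.92 ± 0.19 (adjusted p = 0.00414). Without non-treated replicate 1, the lowest of its group, this LFC was 0.68 and the call was lost (adjusted p = 0.248). The groups did not overlap at any later time with mercury, with 70.8, 76.6 and 76.2 CPM at 3 h, 135, 201 and 172 CPM at 12 h and 150, 159 and 125 CPM at 24 h, against 18.1 to 22.6 CPM in non-treated cells at 24 h. The LFC was 2.41 ± 0.18 at 3 h, then 2.64 ± 0.17 at 6 h, 3.19 ± 0.17 at 12 h (adjusted p = 1.66e-24) and 2.78 ± 0.17 at 24 h.

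Arsenic and cadmium raised SESN2 from 6 h on. Arsenic gave an LFC of 1.81 ± 0.18, 2.28 ± 0.17 and 2.39 ± 0.17 at 6, 12 and 24 h, and cadmium 1.54 ± 0.18, 2.55 ± 0.17 and 1.37 ± 0.18. The cadmium libraries read 114, 108 and 105 CPM at 12 h and 48.5, 51.1 and 64.1 CPM at 24 h, with no overlap between the times. At 3 h, arsenic (0.60, adjusted p = 0.447) and cadmium (0.22, adjusted p = 0.859) were not called.

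DDIT4, which acts on mTORC1 through the TSC complex, was the earliest of the 6 to be called with arsenic and cadmium and the strongest early with mercury. At 1.5 h its libraries read 22.7, 16.8 and 26.7 CPM with mercury and 5.72, 6.26 and 4.76 CPM without treatment. At 3 h they read 91.4, 98.2 and 101 CPM with mercury, 32.5, 37.5 and 17.9 CPM with cadmium, 18.2, 17.9 and 27.6 CPM with arsenic and 11.7, 8.66 and 7.37 CPM without treatment. All treated libraries at 3 h lay above the non-treated ones. The LFC with mercury was 1.97 ± 0.27 at 1.5 h (adjusted p = 2.52e-07), 3.38 ± 0.21 at 3 h (6.63e-21), then 3.05 ± 0.20 at 6 h, followed by 2.97 ± 0.18 at 12 h and 2.29 ± 0.19 at 24 h. At 3 h, DDIT4 ranked 4 by LFC among the 12341 genes tested with mercury.

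Cadmium gave DDIT4 an LFC of 1.66 ± 0.23, 2.25 ± 0.20, 1.43 ± 0.19 and 1.05 ± 0.20 at 3, 6, 12 and 24 h, and arsenic 1.20 ± 0.24, 2.07 ± 0.20, 2.02 ± 0.18 and 1.99 ± 0.19. The 3 h arsenic call (adjusted p = 0.00605) was lost without arsenic replicate 3 (LFC 0.95, adjusted p = 0.356), non-treated replicate 2 (1.15, 0.0703) or non-treated replicate 3 (1.06, 0.152), and with only the 6 libraries compared (1.19, 0.16). The 24 h cadmium call reached an adjusted p of 0.0501 when only the 6 libraries compared were fitted.

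**Figure D2:**
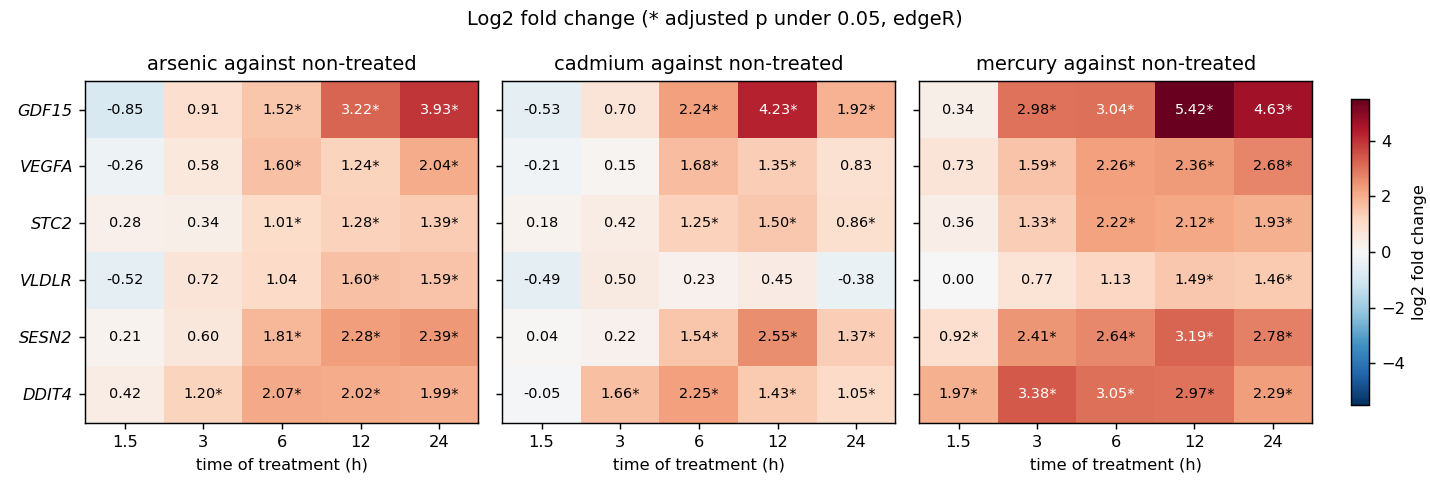
LFC of the 6 genes (rows) against non-treated cells of the same time at 5 times (columns) for each metal, with the value printed in each cell, a colour scale from lower (blue) to higher (red) that is symmetric about 0, and an asterisk at an adjusted p under 0.05. The first asterisks are those of SESN2 and DDIT4 at 1.5 h of mercury, and the VLDLR row has none with cadmium.

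DDIT4 also changed in cells that received no metal. Its non-treated libraries read 5.72, 6.26 and 4.76 CPM at 1.5 h, 15.1, 14.2 and 17.6 CPM at 6 h, 16.2, 23.4 and 24.8 CPM at 12 h and 23.9, 14.7 and 14.1 CPM at 24 h. Against 1.5 h, the LFC was 0.72 ± 0.31 at 3 h (not called), 1.48 ± 0.29 at 6 h (adjusted p = 0.0044), then 1.93 ± 0.27 at 12 h (1.46e-06) and 1.65 ± 0.28 at 24 h (5.58e-05). The 6 h call was lost without non-treated 6 h replicate 3 (LFC 1.37, adjusted p = 0.0516). DDIT4 was the only one of the 6 called in non-treated cells over time, that is 0, 1, 1 and 1 of 6 at 3, 6, 12 and 24 h, beside 0.122%, 0.486%, 4.09% and 3.29% of all tested genes in either direction. At 3 h, 2 members reached an unadjusted p under 0.05 (GDF15 and DDIT4), and DESeq2 called none.

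The mean of DDIT4 without treatment at 12 h, 21.5 ± 4.63 CPM, was thus close to its mean of 22.03 ± 4.99 CPM after 1.5 h of mercury. GDF15 in non-treated cells had an LFC of -1.42 ± 0.50 at 12 h against 1.5 h, which edgeR did not call (adjusted p = 0.0898) and DESeq2 did (0.0325). STC2, SESN2, VEGFA and VLDLR had non-treated LFCs between -0.92 and 0.29 at 6, 12 and 24 h, none of them called.

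The metals were then compared with each other at matched times, in 3 pairs at 5 time points, to ask whether they differ in the strength of these outputs. Arsenic and cadmium did not differ in any of the 6 at 1.5, 3 or 6 h by the test, where 0%, 0.138% and 1.18% of all genes were called in either direction. An unadjusted p under 0.05 was reached by 0, 1 (DDIT4) and 2 (GDF15 and STC2) members at these times, DESeq2 called 0 at each, and over all genes 835 had an unadjusted p under 0.05 at 1.5 h. The interval of the difference was wide for the genes of low counts, -1.25 to 0.62 for GDF15 and -1.14 to 1.07 for VLDLR at 1.5 h, and narrow for STC2, -0.13 to 0.35. At 12 h, 2 of 6 were called, against 5.77% of all genes. GDF15 was lower with arsenic (LFC -1.01 ± 0.25, adjusted p = 0.00636) and DDIT4 higher (0.59 ± 0.17, 0.0228). Both calls at 12 h were lost when certain single libraries were left out, although the LFC kept its sign. GDF15 was not called without arsenic replicate 1 (-0.92, 0.054), and DDIT4 was not called without arsenic replicate 1 (0.50, 0.153), arsenic replicate 2 (0.61, 0.0516) or cadmium replicate 2 (0.51, 0.139).

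At 24 h all 6 were higher with arsenic than with cadmium, where 10.2% of all genes were called in either direction. The LFC of arsenic over cadmium was 2.01 ± 0.23 for GDF15 (adjusted p = 1.97e-10), 1.97 ± 0.48 for VLDLR (0.00332), 1.21 ± 0.25 for VEGFA (0.000268), 1.03 ± 0.15 for SESN2 (6.36e-07), 0.93 ± 0.18 for DDIT4 (6.73e-05) and 0.53 ± 0.11 for STC2 (0.000564). For GDF15 the sign of the difference had turned since 12 h. The 3 libraries of each metal did not overlap for any of the 6 at 24 h. For STC2 the highest cadmium library read 203 CPM and the lowest arsenic library 218 CPM.

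Mercury gave higher levels than arsenic in 3, 5, 4, 5 and 2 of the 6 at the 5 times in order, against 0.737%, 1.67%, 3.07%, 4.42% and 6.78% of all genes called lower with arsenic. At 3 h the LFC of arsenic below mercury was -2.18 ± 0.19 for DDIT4 (adjusted p = 1.38e-13), -2.06 ± 0.36 for GDF15, -1.80 ± 0.18 for SESN2, -1.01 ± 0.27 for VEGFA and -0.99 ± 0.12 for STC2. At 12 h GDF15 differed most, at -2.20 ± 0.24 (1.09e-10). At 24 h it was -0.71 ± 0.20 for GDF15 (0.0132) and -0.54 ± 0.11 for STC2 (0.000324), the 2 called, and DDIT4 was at -0.30 ± 0.17 (adjusted p = 0.257, interval -0.63 to 0.03). The 24 h GDF15 call was lost without arsenic replicate 1 (-0.70, 0.0505), arsenic replicate 2 (-0.62, 0.089) or mercury replicate 2 (-0.61, 0.0947). VEGFA at 24 h (-0.63 ± 0.22, adjusted p = 0.0547) was called by DESeq2 (0.0449), and SESN2 (-0.39 ± 0.15, 0.0705) was called without mercury replicate 3 (-0.48, 0.0447).

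Several early differences between arsenic and mercury lay close to the threshold. At 1.5 h, SESN2 (-0.72 ± 0.18, adjusted p = 0.0271) was not called once any of the 6 libraries was left out, with adjusted p of 0.107, 0.0946 and 0.0551 without arsenic replicates 1, 2 and 3 and 0.15, 0.0685 and 0.055 without mercury replicates 1, 2 and 3. VEGFA at 1.5 h (-0.99 ± 0.27, 0.0437) was not called without arsenic replicate 2 (-0.96, 0.234) or 3 (-0.78, 0.145) or mercury replicate 1 (-0.91, 0.2) or 3 (-0.95, 0.134), nor with only the libraries compared (0.0562). VEGFA at 3 h (0.0258) was not called without arsenic replicate 2 (-0.998, 0.0831) or 3 (-0.87, 0.204) or mercury replicate 2 (-0.69, 0.362), without the 3 libraries of low mitochondrial share (-1.003, 0.0776), or with only the libraries compared (0.0678). GDF15 at 3 h moved to -2.73 without arsenic replicate 1. DDIT4 at 1.5 h, at -1.55 ± 0.24 (1.13e-05), stayed called without any one library.

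Mercury gave higher levels than cadmium in 2, 5, 3, 5 and 6 of the 6 at the 5 times in order, against 0.535%, 1.29%, 2.14%, 1.81% and 10.3% of all genes called lower with cadmium. At 1.5 h these were DDIT4 (-2.02 ± 0.25, adjusted p = 3.1e-08) and SESN2 (-0.88 ± 0.18, 0.00379), and at 3 h all but VLDLR. VEGFA at 1.5 h (-0.94 ± 0.27, adjusted p = 0.0872) was called by DESeq2 (0.042), with no filter (0.019) and with only the libraries compared (0.0131). At 24 h the LFC of cadmium below mercury was -2.71 ± 0.23 for GDF15 (2.34e-15), -1.84 ± 0.24 for VEGFA, -1.84 ± 0.49 for VLDLR, -1.42 ± 0.15 for SESN2, -1.24 ± 0.17 for DDIT4 and -1.07 ± 0.11 for STC2. The SESN2 call at 1.5 h was lost without cadmium replicate 1 (-0.72, 0.0938), and at 12 h (-0.64 ± 0.15, 0.00401) without mercury replicate 2 (-0.49, 0.114). VEGFA at 12 h (-1.004 ± 0.24, 0.00535) was lost without cadmium replicate 1 (-0.84, 0.0756) or mercury replicate 2 (-0.92, 0.0527). GDF15 at 3 h (-2.28 ± 0.36) moved to -2.98 without cadmium replicate 3, and at 6 h (-0.81 ± 0.26, adjusted p = 0.0584) it was called by DESeq2 (0.0232).

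**Figure D3:**
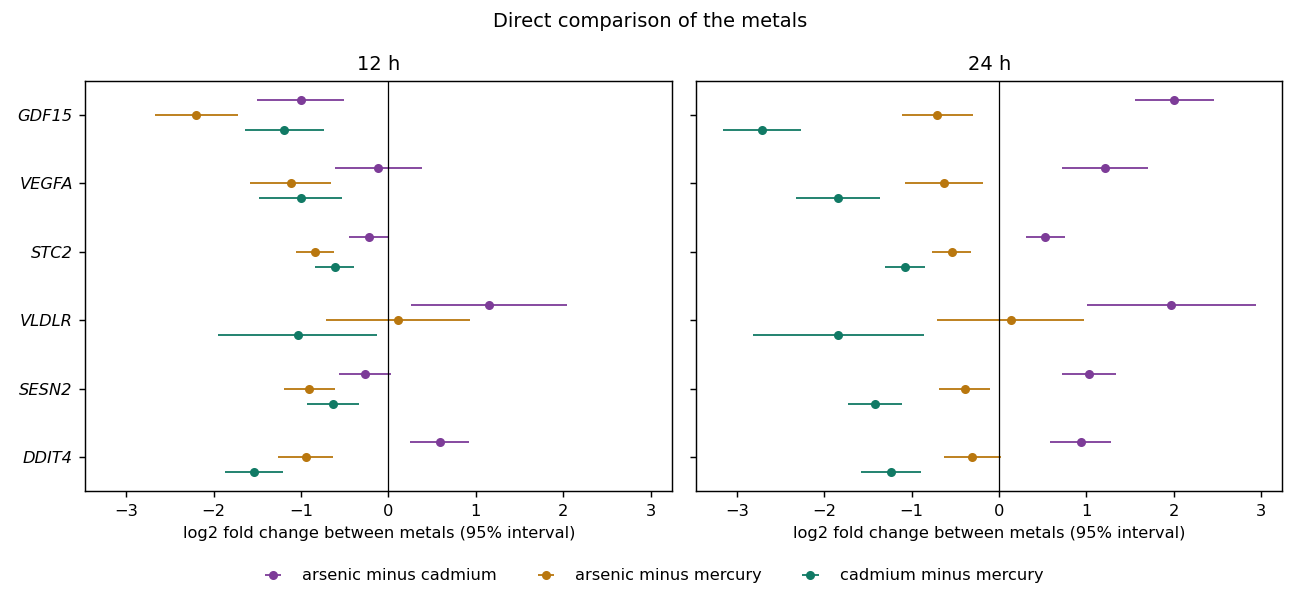
LFC between metals for the 6 genes (rows) at 12 h (left) and 24 h (right), with 95% intervals from the fit over all libraries as bars; points right of 0 are higher in the metal named first. For arsenic minus cadmium (purple), GDF15 is at -1.01 at 12 h and at 2.01 at 24 h, and at 24 h all 6 points lie right of 0.

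Whether the effect of a metal grew or shrank late was tested as a difference of effects, each read against the non-treated cells of its own time. Between 12 and 24 h, the cadmium effect shrank for GDF15 (change in LFC -2.31 ± 0.51, adjusted p = 0.0153) and SESN2 (-1.19 ± 0.25, 0.00921), 2 of the 6 against 0.381% of all genes. For STC2 the change was -0.64 ± 0.17 (adjusted p = 0.0609, called by DESeq2 at 0.0178). The treated level of GDF15 with cadmium was 28.7 ± 2.71 CPM at 12 h and 22.3 ± 7.93 CPM at 24 h, and the libraries overlapped in range. The non-treated mean went from 1.50 to 5.88 CPM, so on the log scale the larger part of the change lay in the non-treated cells. For SESN2 the treated mean went from 109 ± 4.41 to 54.6 ± 8.37 CPM while the non-treated mean was 18.5 and 21.0 CPM. The GDF15 call was lost without non-treated 12 h replicate 1 (-1.92, 0.134), non-treated 24 h replicate 2 (-2.08, 0.0826) or 3 (-2.15, 0.0732), and with only the 12 libraries compared (-2.31, 0.123).

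No member changed its arsenic effect (0 of 6, 1.57% of all genes) or its mercury effect (0 of 6, 0.624%) by the test between 12 and 24 h. An unadjusted p under 0.05 was reached by VEGFA with arsenic and DDIT4 with mercury, and DESeq2 called 0 in both. Between 6 and 12 h the mercury effect on GDF15 grew by 2.38 ± 0.58 (adjusted p = 0.016), 1 of 6 against 1.92% of all genes. This call was lost without non-treated 12 h replicate 1 (1.99, 0.11), the library with 2 counts of GDF15, or non-treated 6 h replicate 2 (1.77, 0.247), the one with 14. DESeq2 gave no adjusted p for it. Over the same interval 0 of 6 were called for arsenic (0.308% of all genes) and 0 of 6 for cadmium (0.324%), with 1 and 3 members at an unadjusted p under 0.05. For cadmium, SESN2 (1.02 ± 0.26, adjusted p = 0.0532) was called by DESeq2 (0.00752), with only the libraries compared (0.0339) and without non-treated 12 h replicate 1 (0.0475). DESeq2 called 0 for arsenic.

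The closest relatives of the 6 genes were read to see whether whole families moved. Of 10 relatives, 7 were tested, and VEGFD, SESN3 and DDIT4L had at most 2, 4 and 12 counts in any library. STC1, the other stanniocalcin, was called lower with arsenic at 12 h, where STC2 was called higher. It had an LFC of -0.74 with arsenic at 12 h (adjusted p = 6.22e-06), and rose with cadmium (0.77 at 12 h and 0.95 ± 0.11 at 24 h) and mercury (0.46 at 12 h and 1.29 ± 0.11 at 24 h, adjusted p = 4.35e-15), from 35.5 ± 5.03 CPM in non-treated cells at 24 h. SESN1, the p53-induced sestrin, had LFCs between -0.58 and 0.58 and was called in none of the 15 comparisons.

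Among the VEGF family, VEGFB was called lower with mercury at 24 h (-0.69 ± 0.17, adjusted p = 0.000997), PGF (placental growth factor) was called higher with mercury at 6 h (0.80) and 24 h (0.91 ± 0.19, adjusted p = 0.000192) and with arsenic at 12 h (0.64), and VEGFC was called nowhere. LRP8, the other reelin receptor, was called higher with all 3 metals at 12 h (arsenic 0.39, cadmium 0.40, mercury 0.73) and with arsenic (0.48 ± 0.11) and mercury (0.42 ± 0.12) at 24 h. At 24 h, relatives called higher and lower were 1 and 0 of 7 with arsenic, 1 and 0 with cadmium and 3 and 2 with mercury. The shares of all tested genes were 6.54% and 7.75% with arsenic, 1.56% and 0.632% with cadmium, and 13.9% and 13.9% with mercury. With 7 genes, a difference from these shares cannot be read.

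Receptors and processing partners of the secreted members were mostly below the filter, with 7 of 14 tested. GFRAL and RET, which together receive GDF15, and the VEGF receptor FLT4 had no count in any library, and FLT1 and KDR had at most 2. At 24 h, 1 was called higher and 1 lower with arsenic, none with cadmium, and 2 higher and 2 lower with mercury. The shares of all tested genes to set beside these counts are those given for the relatives. PAPPA2, a protease that STC2 inhibits, was called higher with arsenic (mean 9.55 CPM) and mercury (9.05 CPM). Its mean without treatment, 0.61 CPM, lay under the level of 3 counts in those libraries (0.778 to 0.919 CPM), and it passed the filter through the treated groups, so no fold is given. MYLIP, a ubiquitin ligase for lipoprotein receptors, was higher with mercury at 2.15 ± 0.39 (1.47e-05), and PAPPA lower at -0.46 (0.0107). For cadmium at 24 h, where none was called, the lowest adjusted p was 0.175, for NRP1.

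The mTORC1 network was read beside SESN2 and DDIT4. Of 39 tested genes of the complex and its nutrient and energy inputs, 9 were called higher and 2 lower with arsenic at 24 h, 1 and 0 with cadmium, and 11 and 10 with mercury, with median LFCs of 0.0037, 0.14 and 0.21. Over all tested genes at 24 h, 7.75%, 0.632% and 13.9% were called lower with arsenic, cadmium and mercury, beside the shares called higher given above. The 2 called genes with the largest fitted LFC were DEPTOR and MIOS with both arsenic and mercury. DEPTOR, which binds and inhibits mTOR, had at most 14 counts in a library and means of 2.48 CPM with arsenic and 2.02 CPM with mercury. Its mean without treatment, 0.30 CPM, also lay under the level of 3 counts, so no fold is given. MIOS, a GATOR2 subunit, had LFCs of -1.11 ± 0.17 (adjusted p = 1.44e-06) and -1.25 ± 0.18 (6.01e-08). FNIP1, a partner of folliculin, was the 1 called with cadmium (0.88 ± 0.22, 0.0117).

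The lists of other regulators were read the same way, with EIF4EBP1 in both the mTORC1 and the ATF4 list, SLC7A11 in both the ATF4 and the NRF2 list and SESN1 in both the relatives and the p53 list. Of 26 tested genes of the ATF4 and CHOP axis, arsenic had 23 called higher at 12 h, cadmium 14 and mercury 24. The shares of all tested genes called higher at 12 h were 2.37%, 5.19% and 8.89%. With cadmium 1 was called lower at 12 h, where 2.99% of all tested genes were. At 24 h arsenic had 25 called higher, cadmium 6 and mercury 24, and none lower, with median LFCs of 1.47, 0.25 and 1.75. The shares of all tested genes called higher at 24 h were 6.54%, 1.56% and 13.9%. CHAC1, a glutathione-degrading enzyme, had the largest LFC of the list with arsenic (3.11 ± 0.32), followed by NUPR1 (2.96 ± 0.57), a stress-induced chromatin protein. ATF3, a stress-induced transcription factor, led with cadmium (2.12 ± 0.27) and mercury (3.74 ± 0.26), followed by PPP1R15A (1.80 ± 0.15), which restores translation, and CTH (3.36 ± 0.33), a cysteine-producing enzyme. Of 18 NRF2 targets, 14, 13 and 16 were called higher at 12 h and none lower. At 24 h, 18, 11 and 16 were called higher and none lower, beside the same shares of all tested genes. HMOX1, which breaks down heme, had LFCs of 7.55 ± 0.18, 4.79 ± 0.18 and 7.21 ± 0.18, and AKR1C1, an aldo-keto reductase, 3.14 ± 0.15, 1.72 ± 0.16 and 4.34 ± 0.15.

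The HIF list bears on VEGFA and DDIT4. Of 27 tested, 4 were called higher and 2 lower with arsenic at 24 h, 1 and 0 with cadmium, and 17 and 2 with mercury, with median LFCs of 0.20, 0.31 and 0.65. At 12 h, arsenic had 1 called higher, cadmium 8 and mercury 12, and each metal had 1 called lower. Of all tested genes at 12 h, 2.37%, 5.19% and 8.89% were called higher and 1.74%, 2.99% and 7.16% lower. The 6 h counts in that order were 0, 3 and 8 higher and 1, 0 and 1 lower. Of all tested genes at 6 h, 0.608%, 1.6% and 4.49% were called higher and 0.308%, 0.446% and 2.99% lower. The difference between metals was not tested for the list. MXI1 (0.88 ± 0.23) and KDM3A (0.70 ± 0.18) had the largest changes with arsenic, PLOD2 (0.54 ± 0.15) was the 1 called with cadmium, and NDRG1 (2.30 ± 0.39) was among the largest with mercury. ANGPTL4, an inhibitor of lipoprotein lipase, was called with mercury at a mean of 2.57 CPM, but its mean without treatment, 0.18 CPM, lay under the level of 3 counts, so no fold is given. Of 22 tested p53 targets, 4 were called higher and 1 lower with arsenic at 24 h, 1 and 1 with cadmium, and 4 and 5 with mercury. Of all tested genes, 6.54% were called higher and 7.75% lower with arsenic, 1.56% and 0.632% with cadmium, and 13.9% and 13.9% with mercury. Whether the list differs from these shares was not tested. GADD45A, a growth arrest gene, was named for all 3 (1.04 ± 0.17, 0.84 ± 0.17 and 1.89 ± 0.17), beside BBC3 with arsenic (0.77 ± 0.17), DDB2 with cadmium (-1.27 ± 0.19) and CDKN1A with mercury (1.71 ± 0.15). Of 8 glucocorticoid targets, which bear on DDIT4, 1, 2 and 4 were called higher and none lower, TSC22D3 at 1.49 ± 0.31 with arsenic and 2.46 ± 0.30 with mercury, SGK1 at 1.54 ± 0.30 with cadmium, and ERRFI1 at 0.80 ± 0.21 with cadmium and 1.98 ± 0.20 with mercury.

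The 6 genes resembled each other across the 20 group means to different degrees, as a description over points that share libraries and controls. The Pearson correlation of log2 CPM was 0.94 between STC2 and SESN2, 0.93 between VEGFA and SESN2, 0.93 between GDF15 and VEGFA and 0.91 between SESN2 and DDIT4, and lowest for pairs with VLDLR, 0.71 to 0.78. GDF15 and DDIT4, also at 0.78, were no more alike than the closest pair with VLDLR, to 2 digits. Among 9313 genes with at least 10 CPM in some group, those most like GDF15 were TRIM16 (0.97), CLIP4 (0.95) and POPDC3 (0.95). VEGFA was most like CEBPB (0.96), CLIC4 (0.95) and CEBPG (0.95), STC2 like MAFG (0.96), CEBPB (0.95) and SESN2 (0.94), and SESN2 like CEBPB (0.97), DDIT3 (0.96) and HERPUD1 (0.96). DDIT4 was most like CHAC1 (0.96), NMRAL2P (0.93) and SESN2 (0.91), and VLDLR like PCOLCE2 (0.93), GPT2 (0.93) and SLC1A4 (0.91). CEBPB, a leucine-zipper transcription factor, thus appeared for 3 of the 6.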

How the data were processed

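QuantSeq 3′ mRNA libraries of 1321N1 cells were sequenced, 60 in 20 groups of 3. Alignment by the authors used STAR 2.7.9a and the GRCh38 build, and reads were counted per gene with summarizeOverlaps (Union mode, strand-specific) on the GENCODE basic annotation 43, and the authors deposited 1 table of whole-number counts for 62703 genes and 92 spike-ins, which had 0 counts.

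Groups were taken from the labels. Spike-ins were removed, genes were kept by filterByExpr (minimum count 10, minimum total 15), and libraries were scaled by TMM. In edgeR 4.0.16 with limma 3.58.1 (R 4.3.3), 1 quasi-likelihood model with a mean per group was fitted over all 60 libraries. Its contrasts were 15 against non-treated cells, 15 between metals, 6 between the effects of a metal at successive times, and 4 between times in non-treated cells. P-values were two-sided and adjusted by Benjamini-Hochberg over all 12341 tested genes within a contrast, and a gene was called at an adjusted p under 0.05. Standard errors are the LFC divided by the square root of F. The common biological coefficient of variation was 0.12. CPM were TMM-normalized, and the correlations used log2 CPM with a prior count of 2. Levels were not tested between genes. At these depths 3 counts correspond to 0.681 to 1.35 CPM, which limits GDF15 without treatment, VLDLR, PAPPA2, DEPTOR and ANGPTL4, and this covers counting error only.

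The 60 pairs of libraries within groups correlated at 0.958 to 0.977 (Pearson, across genes, which are not independent replicates). Each pair differed by more than counting noise (lowest chi-square per degree of freedom 2.02), so none was a copy of another. All were counted separately, although this cannot show that they came from separate cultures. Alternatives were RLE size factors, no filter, a stricter filter (10 CPM in at least 3 libraries), a replicate block, a test of an LFC beyond 1, the compared libraries alone, CPM without TMM factors, DESeq2 1.42.0 and leaving out each library. A fit without the 3 libraries with low mitochondrial shares was chosen after seeing the data. The model was tested on simulated data.

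The 6 genes, the gene lists and the rule for naming genes were chosen with earlier results of these data known. The rule names all relatives of the 6 and, from each other list, the 2 called genes with the largest LFC at 24 h for each metal. Some of these are counted but not reported here by name. PAPPA and NRP1 were named after their values were seen. For likeness, the 3 genes with the highest correlation were named, among genes with at least 10 CPM in some group. Promoter windows came from RefSeq (GRCh38), and gene positions and overlaps from GENCODE 44.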

Additional observations from a re-analysis of the deposited data

Results flagged for a closer look

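For 3 results among the 6 genes, the effect of a metal at 1 time differed from its effect at another by the test of the difference itself. The cadmium effect at 24 h minus that at 12 h was -2.31 on the log2 scale for GDF15 (95% interval -3.33 to -1.29) and -1.19 for SESN2. The mercury effect at 12 h minus that at 6 h was 2.38 for GDF15. Both GDF15 results were lost when single non-treated libraries were left out, as given with them, and the SESN2 result was kept without any one library. For GDF15 with cadmium, the treated libraries at 12 and 24 h overlapped in range, while the non-treated mean went from 1.50 to 5.88 CPM.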

How the results depend on the processing

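Against non-treated cells 57 calls were made for the 6 genes, between metals 48, between times of a metal 3 and in non-treated cells over time 3. A test of an LFC beyond 1 left 32, 9, 0 and 0, since it asks for a larger change. With no filter on low counts the calls between times were 5, and the cause was not tested. Over 60 fits that each left out 1 library, the counts ranged from 54 to 57, 46 to 49, 2 to 4 and 2 to 3. In each fit only the comparisons that used the group of the left-out library were recomputed. All other calls were carried over from the main fit, so these ranges are narrow in part by construction. The replicate block gave 57, 49, 3 and 3, with VEGFA gained between arsenic and mercury at 24 h (adjusted p = 0.0389). The replicate numbers did not pair the libraries, since same-numbered deviations correlated at -0.278 to 0.0837 (median -0.0080) and 0 of 45 were over 0.1. DESeq2 gave 57, 51, 4 and 4, the compared libraries alone 54, 49, 3 and 3, and the fit without the 3 libraries of low mitochondrial share 57, 47, 3 and 3. No called value changed sign in any alternative that was run. Depth limits GDF15 without treatment and VLDLR, whose lowest libraries had 2 and 1 counts.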
